A study of Mus musculus with 7 samples.

Results

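Apolipoproteins are the protein components of lipoproteins, the particles that carry cholesterol and triglycerides through blood and tissue fluid. Most are made and secreted by hepatocytes, by the intestine and, before the liver forms, by the visceral endoderm of the yolk sac, whereas *Apoe* is also expressed by macrophages, glia and many mesenchymal cells. *Apob* is the structural protein on which large particles are built, *Apoa1* and *Apoa2* are the main proteins of high density lipoprotein, and *Apoc2*, *Apoc3* and *Apoa5* act on lipoprotein lipase.

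This account covers 10 genes, *Apoa1*, *Apoa2*, *Apoa4*, *Apoa5*, *Apob*, *Apoc2*, *Apoc3*, *Apoe*, *Apoh* and *Apom*, of the 21475 gene names on the array, and all 16 of their probes of 41174. They were measured in the posterior second heart field (pSHF), the progenitor tissue behind the heart that gives rise to the atrial septum, at E9.5 in *Shh* -/- and *Shh* +/+ embryos. *Shh* +/- females on a mixed C56B/6 and CD-1 background were superovulated with gonadotropins and mated to *Shh* +/- males, so both genotypes came from the same kind of cross, and the tissue of several embryos was pooled by genotype. The dissection, per the study's methods, took the dorsal mesenchymal protrusion, the nearby ventral lateral plate mesenchyme and the attached foregut, and left out heart and neural tube. There were 4 mutant pools (numbered 1 to 4) and 3 wild-type pools (numbered 1, 3 and 4), with 1 single-colour array each on 4 slides. The genes were chosen from differences between these same mutant and wild-type pools, so the genotype comparison of the members is given as a description and nothing is read from their count of calls.

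Pools of equal number were hybridized on a common slide. Since every such slide carried its mutant sample at position 1 and its wild-type sample at position 2, an effect of position cannot be told apart from one of genotype. No wild type shared the slide of mutant pool 2, for which the labels note a possible leak during hybridization. Between 60.0% and 70.6% of probes were well above background on an array, no spot was saturated, and the median change of the 23129 probes tested was 0.02. The targeted gene *Shh* had normalized log2 signals of 9.64, 9.36, 9.19 and 9.29 in mutant pools 1 to 4 and 10.69, 10.71 and 9.95 in the wild types (change −1.08, limma's adjusted p = 0.0655). The part of the gene removed in the null allele is not given in the sources used here, so how far this probe checks the genotype is not known. Of 8 second heart field markers all were measured, with a median change of −0.13 and a positive change in 4. *Osr1* (−0.88), *Foxf1a* (−0.80) and *Isl1* (−0.43) had the largest changes, *Hand2* had the largest positive one (0.25), and the lowest adjusted p by limma was 0.0929, for *Foxf1a*.

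Promoter sequence (RefSeq, build GRCm38.p6) was found for 9 of the 10 members, in 13 windows, and the 250 bases before each start site were searched on both strands. Shown are the 3 tested members other than *Apoe* whose genotypes had separate ranges of signal, and *Apoa4*, the only member with a match to either liver factor motif. *Apoc2* is shown up to the end of the neighbouring *Apoc4*. *Apoa1* lies at chr9:46228380-46228629 (plus strand), *Apoa4* at chr9:46240594-46240843 (plus), *Apoc2* at chr7:19677942-19678083 (minus) and *Apom* at chr17:35131802-35132051 (minus). Each is written 5′ to 3′ and ends at the base before the start site, and capitals mark a match to the HNF4 motif.
Apoa1: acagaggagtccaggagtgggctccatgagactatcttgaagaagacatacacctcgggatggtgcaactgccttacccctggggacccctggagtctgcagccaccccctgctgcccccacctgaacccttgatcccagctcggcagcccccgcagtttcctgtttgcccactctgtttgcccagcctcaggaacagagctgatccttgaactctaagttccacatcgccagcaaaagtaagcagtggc
Apoa4: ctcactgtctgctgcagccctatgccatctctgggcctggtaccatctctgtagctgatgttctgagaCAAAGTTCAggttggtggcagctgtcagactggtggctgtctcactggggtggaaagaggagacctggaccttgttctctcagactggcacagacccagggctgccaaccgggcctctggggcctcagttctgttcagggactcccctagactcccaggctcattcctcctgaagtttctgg
Apoc2: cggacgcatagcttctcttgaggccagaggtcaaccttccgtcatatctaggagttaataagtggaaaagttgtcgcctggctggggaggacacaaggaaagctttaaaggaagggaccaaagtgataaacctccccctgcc
Apom: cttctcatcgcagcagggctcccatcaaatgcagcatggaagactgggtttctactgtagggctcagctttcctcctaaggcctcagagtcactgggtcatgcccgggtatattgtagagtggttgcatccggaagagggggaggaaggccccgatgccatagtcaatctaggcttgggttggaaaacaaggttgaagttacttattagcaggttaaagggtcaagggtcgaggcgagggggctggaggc
The HNF4 motif, searched as CAAAGTNCA, occurred in 1 of the 9 members, *Apoa4*, where its first base is at −182, and in 1.19% of all 32851 promoter windows of the same length. The HNF1 motif, searched as GTTAATNAT, occurred in 0 members and in 0.737% of windows. The letters TATAAA, taken anywhere in the 250 bases, occurred in 4 members, *Apoa2*, *Apoa5*, *Apob* and *Apoe* (12.4% of windows). Their first base was at −212 in *Apoa2*, −60 in *Apob* and, depending on the start site, −31 or −56 in *Apoa5*. In *Apoe* it was at −96 and, on the opposite strand, at −100. Such a match is not by itself a working TATA box. The GC box letters (GGGCGG) occurred in 0 members (32.7% of windows). The sequences shown for *Apoa1*, *Apoc2* and *Apom* thus held no exact match to either liver factor motif. The search took these letters only, so a site that departs from them would be missed. *Apoa4*, which held a match, was not well above background on any array. Whether either factor acts on any member was not tested.

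Signals of 7 members could be tested, each on a probe that exceeded background throughout the mutant arrays, the wild-type arrays or both. Every one of the 7 had a higher mean in the mutants, with a median log2 change of 0.74 and a range from 0.17 for *Apoa5* to 1.33 for *Apoc2*, where 55.4% of all probes tested had a positive change. In 4 of them, *Apoc2*, *Apom*, *Apoa1* and *Apoe*, each mutant array lay above each wild-type array, a pattern found at 4.77% of all probes. In dissected tissue a change in the number of cells that express a gene and a change in RNA per cell cannot be told apart. Values are normalized log2 signals on one probe, listed as mutant pools 1, 2, 3 and 4 and then wild-type pools 1, 3 and 4, and levels of different probes are not compared.

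**Figure D1:**
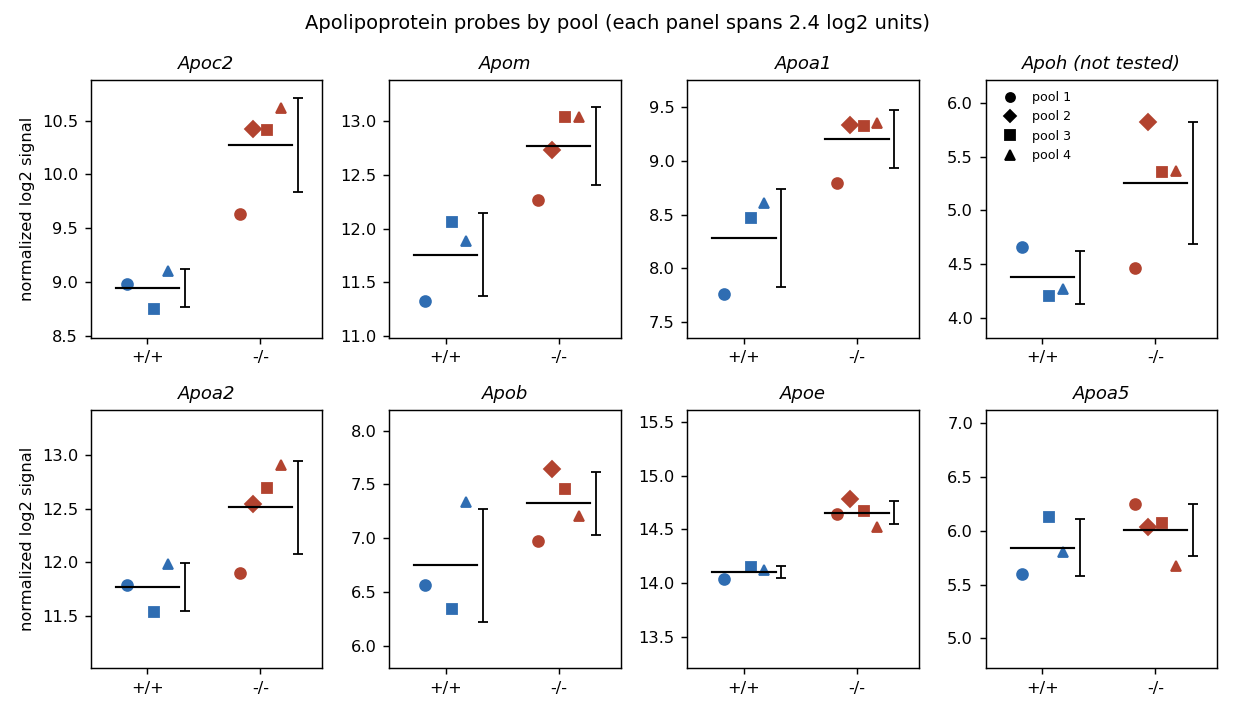
Normalized log2 signal of 8 apolipoprotein genes (vertical axis, a 2.4 log2 unit span in each panel) in 3 wild-type (+/+, blue) and 4 *Shh* mutant (-/-, red) pools. Each symbol is a pool, lines are means and bars are SD; the mutant pools lie above all wild-type pools for *Apoc2*, *Apom*, *Apoa1* and *Apoe*, while *Apob*, *Apoa2*, *Apoa5* and the untested *Apoh* overlap.

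Among the lipase cofactors, *Apoc2*, which activates lipoprotein lipase, had signals of 9.63, 10.43, 10.42 and 10.61 in mutants and 8.98, 8.75 and 9.10 in wild types (probe at chr7:20257027-20257086, mm9). Mutant pool 1 was the lowest of the mutants but still above the highest wild type. The mean was 10.27 ± 0.44 (SD, n = 4) against 8.94 ± 0.18 (SD, n = 3), a change of 1.33 (standard error 0.23) or 2.52-fold. *Apoc2* was the single member probe of 9 tested that passed limma's threshold (adjusted p = 0.0477), against 0.264% of all probes called higher, and since this contrast chose the genes the count carries no weight. The adjusted p was 0.0887 with the replicate block, to which mutant pool 2, with no wild type on its slide, adds nothing. With slide as a random block it was 0.0349. It was 0.00738 without mutant pool 1 and was above 0.05 when any other array was left out, from 0.091 without mutant pool 4 to 0.228 without wild-type pool 1. On the 3 shared slides the mutant exceeded the wild type by 0.65 (pools 1), 1.67 (pools 3) and 1.52 (pools 4).

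*Apoc3*, which inhibits the same lipase, was read by 2 probes, 1 well above background on 1 of 7 arrays (mutant pool 3, 4.52) and the other on none. *Apoa5*, a positive regulator of lipase-driven triglyceride clearance, was measured on 1 of its 2 probes. Its signals were 6.25, 6.04, 6.07 and 5.68 in mutants and 5.60, 6.13 and 5.80 in wild types. The genotypes overlapped, although mutant pool 1 was the highest and wild-type pool 1 the lowest of all, and the change was 0.17 (standard error 0.17).

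Among the proteins of high density lipoprotein, *Apoa1*, which takes up cholesterol from cells, gave 8.79, 9.34, 9.33 and 9.35 in mutants and 7.76, 8.47 and 8.61 in wild types (probe at chr9:46037921-46037980, mm9). Mutant pools 2, 3 and 4 lay together and pool 1 was lower, and in the wild types pool 1 was the lowest. The change was 0.92 (standard error 0.23, 1.90-fold), and the 3 shared slides gave 1.03, 0.85 and 0.74. The probe was printed 10 times on each array, and its spots differed by an SD of 0.019 to 0.072 within an array, less than the SD of 0.27 among mutant pools.

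*Apoa2*, the second protein of these particles, had values of 11.90, 12.55, 12.70 and 12.90 in mutants and 11.79, 11.53 and 11.98 in wild types. Mutant pool 1 lay below wild-type pool 4, so that the genotypes overlapped although the other 3 mutant pools were higher than all wild types. The change was 0.74 (standard error 0.23, 1.67-fold), and on the slide of pools 1 it was 0.11 against 1.16 and 0.92 on the others.

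*Apom*, a lipocalin that carries sphingosine 1-phosphate on high density lipoprotein, read 12.27, 12.73, 13.04 and 13.04 in mutants and 11.33, 12.07 and 11.88 in wild types. No arrays of the genotypes overlapped, and the closest were mutant pool 1 and wild-type pool 3. The change was 1.01 (standard error 0.23, 2.02-fold), and the slides gave 0.94, 0.97 and 1.16, a narrower range than for *Apoa2* or *Apoc2*. *Apoa4*, an intestinal and hepatic protein of the same gene cluster as *Apoa1*, was not well above background on any of the 7 arrays.

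*Apob* was read by 5 probes along its transcript, numbered from the 5′ end and shown because they do not give 1 answer. They begin at transcript positions 3189, 6486, 10517, 13397 and 13457, by the array's annotation, and the first crosses an exon junction.
Apob probe 1: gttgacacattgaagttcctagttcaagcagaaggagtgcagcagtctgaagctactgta
Apob probe 2: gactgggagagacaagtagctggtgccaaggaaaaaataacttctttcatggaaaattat
Apob probe 3: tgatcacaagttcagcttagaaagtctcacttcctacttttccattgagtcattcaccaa
Apob probe 4: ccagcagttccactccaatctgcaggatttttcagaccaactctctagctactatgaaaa
Apob probe 5: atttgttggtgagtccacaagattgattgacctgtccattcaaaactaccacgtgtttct
Probes 1 and 3 were well above background on 1 and 0 of 7 arrays, and probes 4 and 5, which abut near the 3′ end, on all 7. Probe 5 gave 6.98, 7.65, 7.46 and 7.21 in mutants and 6.56, 6.34 and 7.34 in wild types. Wild-type pool 4 lay above mutant pools 1 and 4, so that the genotypes overlapped. Its change was 0.57 (standard error 0.25), probe 4 gave 0.58 (standard error 0.29), and probe 2, above background on 6 of 7 arrays, gave 0.96 (standard error 0.45). Probe 2 passed the filter only through the mutant arrays, in which it is higher, so its change carries no weight. On the slide of pools 4 the mutant was lower with probes 2, 4 and 5 (−0.13 with probe 5).

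**Figure D2:**
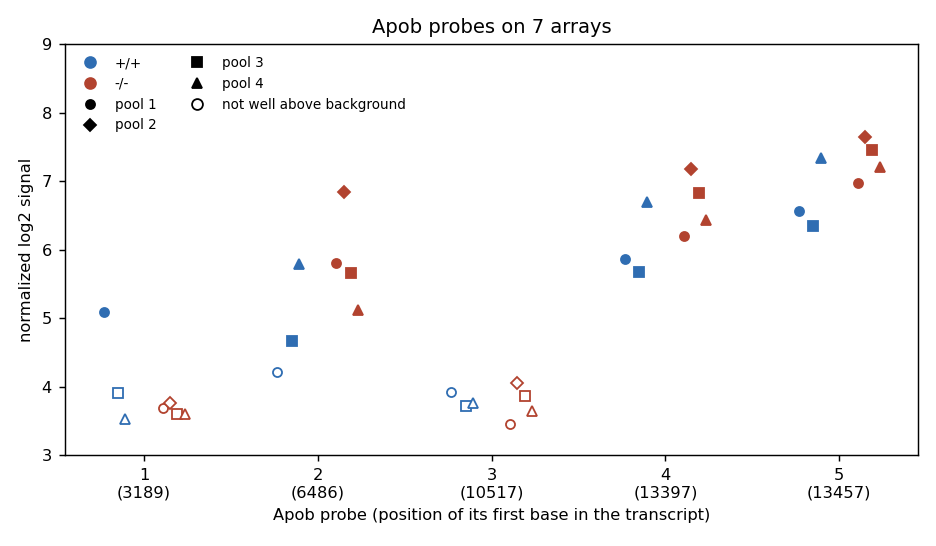
Normalized log2 signal (vertical axis) of the 5 *Apob* probes in transcript order (horizontal axis, with the transcript position of each probe's first base) on 7 arrays. Open symbols were not well above background; probes 4 and 5 are filled on all arrays, and wild-type pool 4 (blue triangle) lies among the mutant values.

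*Apoh*, beta-2-glycoprotein I, was well above background in 3 of 4 mutant and 2 of 3 wild-type pools and was not tested. Its signals were 4.47, 5.82, 5.36 and 5.37 in mutants and 4.66, 4.21 and 4.27 in wild types. Mutant pool 1 fell within the wild-type range, and the other 3 mutants lay above it.

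*Apoe*, which mediates the uptake of lipoproteins by cells, had signals of 14.65, 14.79, 14.68 and 14.52 in mutants and 14.04, 14.15 and 14.12 in wild types. The mutants did not overlap the wild types, and mutant pool 1 was not the lowest. The change was 0.56 (standard error 0.11, 1.47-fold), and the slides gave 0.61, 0.53 and 0.41. Its 10 spots differed by an SD of 0.012 to 0.035 on an array.

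To set the liver and yolk sac type genes against the widely expressed *Apoe*, the median over the 6 other tested members was taken on each array as the difference from the wild-type mean. It was 0.46, 0.94, 0.99 and 1.103 in mutant pools 1 to 4 and −0.21, 0.00 and 0.18 in the wild types. The same for *Apoe* was 0.55, 0.68, 0.57 and 0.42, and −0.06, 0.05 and 0.02. The 6 genes varied more among mutants (0.87 ± 0.28, SD, n = 4) than *Apoe* did (0.56 ± 0.11). The 6 genes less *Apoe* came to −0.09, 0.25, 0.41 and 0.68 in mutants and −0.15, −0.05 and 0.17 in wild types, so that mutant pool 1 lay within the wild-type range and pools 2 to 4 above it. The mean of this difference was 0.32 higher in mutants, about its SD of 0.32 among mutant pools, and it was 0.19 without wild-type pool 1, 0.20 without mutant pool 4 and 0.001 in the authors' values.

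**Figure D3:**
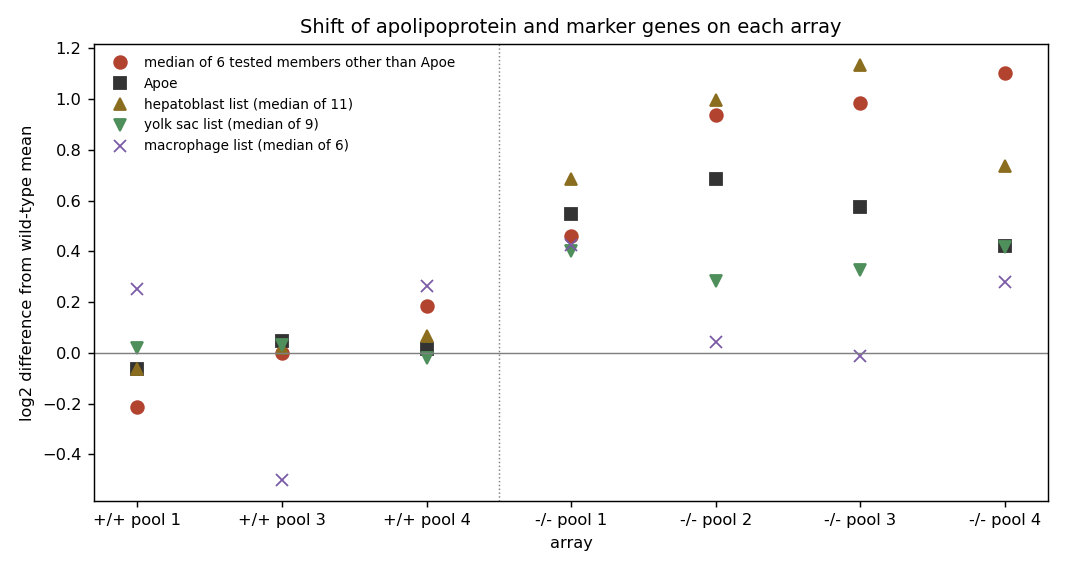
Difference from the wild-type mean (vertical axis, log2) on each of 7 arrays (horizontal axis) for the median of 6 apolipoprotein genes, for *Apoe*, and for the medians of hepatoblast, yolk sac and macrophage marker lists. The hepatoblast median lies between 0.69 and 1.14 in the mutant pools and between −0.06 and 0.07 in the wild types.

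Markers of other cell types that the dissection could hold were set beside these changes. The marker lists were written with earlier results of these data known, so their counts are a description. Of all probes tested, 55.4% had a positive change, 0.264% were called higher and 0.294% lower. All 11 hepatoblast markers had a positive change (median 0.84), and 5 of them, *Fga* (1.45, limma's adjusted p = 0.044), *Alb* (1.22, 0.0496), *Fgg* (0.92, 0.0434), *Ttr* (0.91, 0.0319) and *Fgb* (0.82, 0.0491), rose. *Ahsg* had the largest change, 1.61, without passing (adjusted p = 0.0573). Their summed signal ran from 244400 to 328600 in mutants and from 217900 to 226800 in wild types. Such a sum, here and in the lists below, is weighted to the brightest probes and does not describe a list as a whole. In the hepatoblast list these were *Afp* and *Dlk1*, with wild-type means of 16.8 and 16.3. *Dlk1* was at 0.35 (limma's adjusted p = 0.506). The alpha-fetoprotein gene *Afp*, a hepatoblast and yolk sac marker, was at 0.17 (standard error 0.16). The count of 5 became 0 without mutant pool 2, mutant pool 3 or any 1 wild-type array, 1 without mutant pool 4, 5 when mutant pool 1 was omitted and, under the replicate block, 0. It was also 0 with the 75th percentile scaling, outlier spots kept, no filter on dim probes and the authors' values, 1 with quantile normalization and 2 with no background correction. With slide as a random block it was 6. At an unadjusted p under 0.05 limma gave 9 or 10 of the 11 in each of these settings except the authors' values, where it gave 0. The list's median was between 0.76 and 0.97 when single arrays were left out.

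Of 9 yolk sac markers all had a positive change (median 0.21) and 1, *Ttr*, was called, with *Hnf4a* at 0.84 and *Rbp4* at 0.78. Their summed signal was 161900 to 226800 in mutants and 147000 to 159800 in wild types. This sum was weighted to *Afp* and *Rbp4*, the brightest probes of the list. The hepatoblast and yolk sac lists share *Afp*, *Ttr* and *Hnf4a*, and *Hnf4a* is also in the list of regulators. Of the remaining yolk sac markers, *Lrp2* was at 0.70, and *Dab2*, *Amn*, *Cubn* and *Rhox5* were between 0.07 and 0.21.

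Of 8 macrophage markers 6 were tested and 4 had a positive change (median 0.09). Their summed signals overlapped, from 457.5 to 768 in mutants and from 344 to 537.2 in wild types. *Lyz2* had the largest change at 1.00 (adjusted p = 0.384), then *Ptprc* (0.30) and *Aif1* (0.17), *Csf1r* was at 0.01, and *C1qa* was well above background on 1 of 7 arrays. The part of any of these cells in the apolipoprotein values was not tested.

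The foregut list, 8 genes, had 0 positive changes (median −0.22), with *Shh*, *Nkx2-1* (−0.88, adjusted p = 0.0516) and *Sox2* (−0.40) farthest from 0. *Shh* is the gene targeted in the mutants, so its own change does not describe the foregut cells. The list's summed signal, *Shh* included, was 18750 to 20940 in mutants and 21930 to 25270 in wild types. The erythroid list, 6 genes, also had 0 positive changes (median −0.39), with *Klf1* at −0.53 and *Alas2* at −0.40. Its summed signal overlapped, at 256600 to 402400 and 351800 to 574800. No gene of either list was called.

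Of the 10 members, 6 stand in 2 gene clusters. On chromosome 7 the order is *Apoc2*, *Apoc4*, *Apoc1* and *Apoe*, and on chromosome 9 it is *Apoa1*, *Apoc3*, *Apoa4* and *Apoa5*. In the first, *Apoc1*, an inhibitor of lipoprotein uptake and no member, had signals of 12.51, 12.63, 12.65 and 12.83 in mutants and 11.99, 11.64 and 11.70 in wild types. Its mutant arrays lay above all wild types, and it rose by 0.88 (standard error 0.13, limma's adjusted p = 0.0319). *Apoc4*, which lies between *Apoc2* and *Apoc1*, was well above background in 1 of 4 mutant and 1 of 3 wild-type pools. In the second cluster *Apoa1* was measured on all arrays, *Apoa5* on all with 1 probe, *Apoa4* on none and *Apoc3* on 1.

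The lipoprotein pathway beyond the members held 58 listed genes, of which 57 were on the array and 52 were tested. Of these, 4 rose and 1 fell, against 0.264% and 0.294% of all probes, and 32 had a positive change (median 0.10). Without wild-type pool 1 the 5 calls became 0. They were 1 without mutant pool 2, mutant pool 3, wild-type pool 3 or wild-type pool 4, 2 without mutant pool 4, 5 when mutant pool 1 was omitted and, under the replicate block, 0. With slide as a random block they were 6. At an unadjusted p under 0.05 limma gave 15 genes with all arrays, 15 without wild-type pool 1 and 17 under the block.

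**Figure D4:**
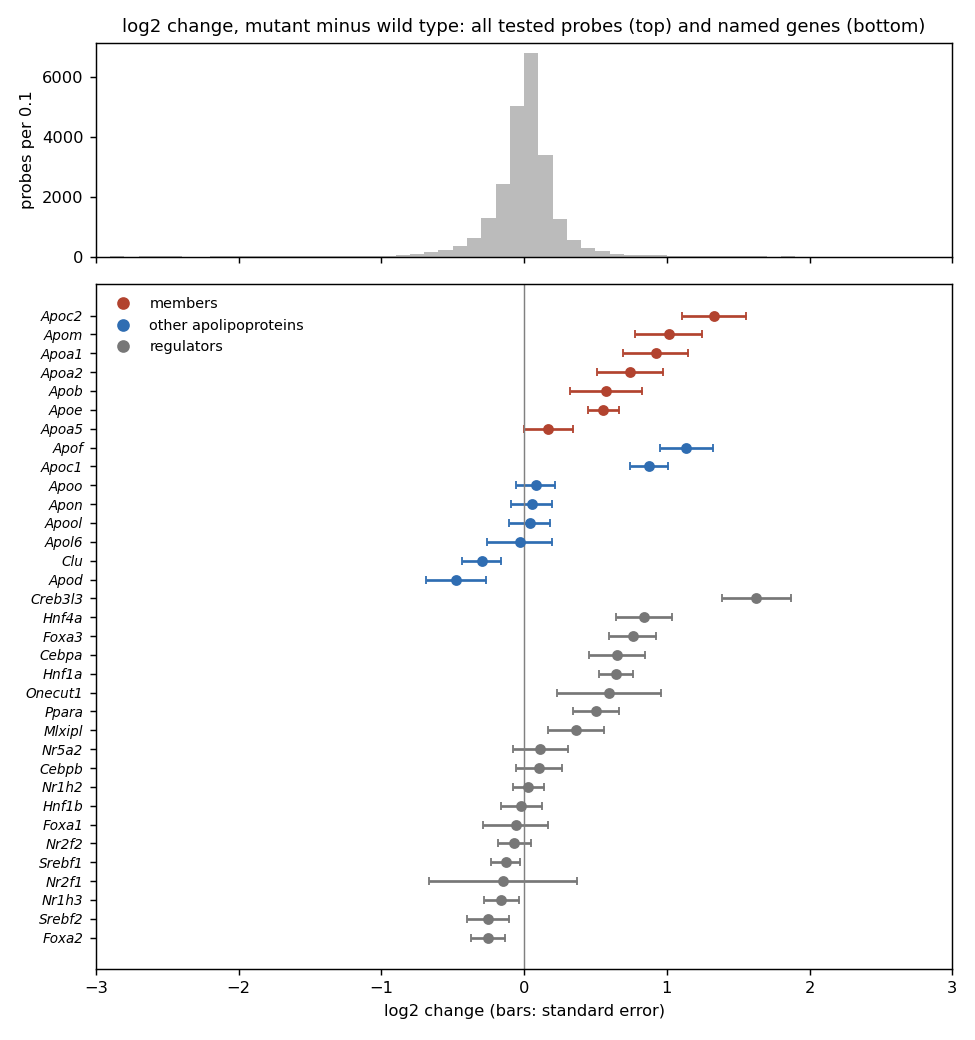
Top, number of probes per 0.1 of log2 change (mutant minus wild type) over the 23129 probes tested; bottom, log2 change with standard error (horizontal axis) for the 7 tested members, the other apolipoproteins and the listed regulators. *Apof*, *Apoc1* and *Creb3l3* lie at 1.14, 0.88 and 1.63, and most other genes of their lists lie nearer 0.

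Of 8 other apolipoproteins tested, 2 rose, *Apoc1* and *Apof*, a secreted liver protein that regulates lipid transfer (1.14, standard error 0.18, limma's adjusted p = 0.0434). *Apof* read 8.70, 8.54, 9.35 and 8.96 in mutants and 7.72, 7.71 and 7.82 in wild types. *Apod*, a lipocalin, was well above background in 0 of 4 mutant pools and all 3 wild types, and a bound on its difference gave no fold. *Apoo*, *Apool*, *Apon* and *Apol6* were between −0.03 and 0.08, and *Clu* was at −0.30. The list's median was 0.05.

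Among 6 tested enzymes and lipase regulators, *Pltp*, which transfers phospholipid between particles, fell by 1.31 (standard error 0.14, limma's adjusted p = 0.0123). Its signals of 5.94, 5.91, 6.27 and 6.15 in mutants all lay below 7.25, 7.25 and 7.62 in wild types. *Lpl*, the lipase itself, was at 0.50 (adjusted p = 0.53).

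Genes that assemble or take up the particles gave no calls. Of 4 assembly genes *Mttp*, which loads lipid onto *Apob*, was at 0.55 (standard error 0.22, limma's adjusted p = 0.522), *P4hb* at 0.14 and *Sar1b* at 0.10. Of 12 receptors and their regulators, *Lrp2*, the endocytic receptor megalin, was at 0.70 (adjusted p = 0.136) and *Lrp1* at 0.36. The 3 transporters tested were *Abca1* (0.27), *Abcg1* (−0.16) and *Abcg5* (−0.11).

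Among 19 tested regulators 1 rose, *Creb3l3*, a membrane-bound transcription factor of liver and intestine (1.63, standard error 0.24, limma's adjusted p = 0.0319). It read 7.31, 8.16, 8.05 and 8.01 in mutants and 6.13, 5.94 and 6.70 in wild types, with pool 1 again the lowest mutant. *Hnf4a*, a nuclear receptor of liver, gut and visceral endoderm, was at 0.84 (adjusted p = 0.132) and *Foxa3* at 0.76 (adjusted p = 0.1). A dimmer tested *Hnf4a* probe, well above background in 2 of 4 mutant and all 3 wild-type pools, was at −0.15 (standard error 0.27). Another *Hnf4a* probe was well above background on no array. The list's median was 0.11, with 11 of 19 positive.

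Over the 7 arrays, each gene's values less their mean were set against the mean profile of the 6 tested members other than *Apoe*, which was −0.04, 0.45, 0.49 and 0.46 in mutants and −0.67, −0.46 and −0.22 in wild types. The 5 non-member genes nearest it, by root mean square difference, were *Gckr* (0.068 log2 units), which encodes the glucokinase regulator, *Tec* (0.096), a tyrosine kinase, *Hnf4a* (0.098), *Synpr* (0.099), a synaptic vesicle protein, and *Mgst2* (0.102), a glutathione transferase. Of the members, *Apoa1* was nearest at 0.16 and *Apoa5* farthest at 0.45, and *Apoe* was at 0.23. The profile includes the difference between genotypes that chose the members, so this likeness is a description.

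**Figure D5:**
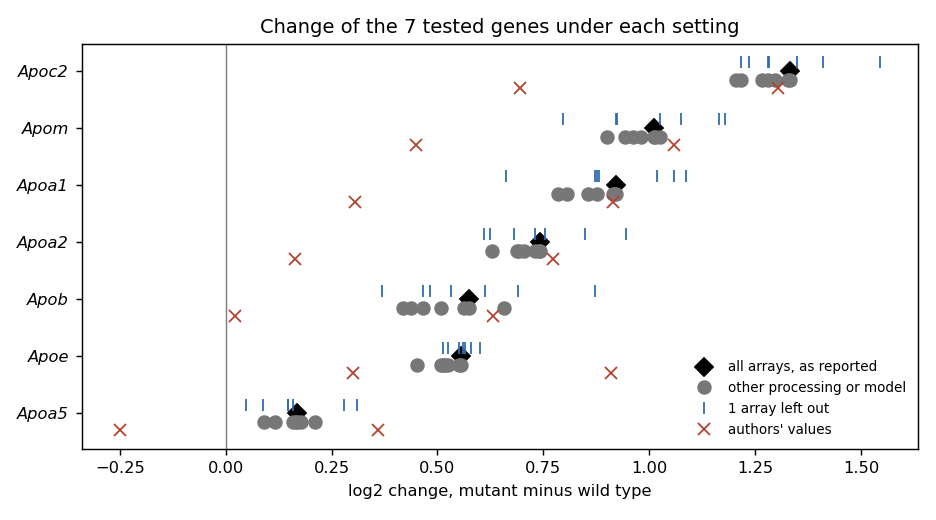
Log2 change, mutant minus wild type (horizontal axis), of the 7 tested members (vertical axis) with all arrays, under other processing or models, with 1 array left out, and in the authors' values. The changes lie right of 0 except *Apoa5* in the authors' values as deposited (−0.25).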

How the data were processed

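Each of 7 pools of pSHF RNA (E9.5) was hybridized to 1 Agilent mouse array in a single colour. The deposited scan files give the intensity of signal and background at each spot (Feature Extraction 10.5.1.1). A further table holds the authors' normalized values on the log2 scale, with array medians from 5.501 to 9.929. Per the study's methods, intensities were background corrected, VSN normalized and log2 transformed. Genotype and pool number came from the labels, whose strain and genotype entries are exchanged and were read by content.

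Background was removed from the mean intensities with normexp (offset 50), whose parameters were set from 153 negative control spots. VSN was then run with code written for this purpose (trimming share of 0.9, 7 rounds, 5 strata), on the log2 scale. Outlier spots, 155 to 206 on an array, were dropped, and repeated spots of a probe were averaged. Tested were gene-named probes that exceeded background by the scanner's flag on all arrays of a genotype, 23129 probes of 14896 genes. Each listed gene is read by its brightest tested probe. Genotypes were compared with limma 3.58.1 in R 4.3.3 (package data.table, version 1.17.8), with Benjamini-Hochberg adjustment over all probes and a threshold of 0.05, which called 129 probes. SAM, the study's test, was not used here because it permutes arrays. The VSN and limma code was tested on simulated data, and the other steps were not. Figures used matplotlib 3.10.9 in Python 3.11.15.

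The members, lists and tests were chosen with earlier results of these data known. Named are all members, the called genes and the 3 largest changes of each list, the genes of both apolipoprotein clusters, and the 5 genes nearest the members' mean profile. Some genes of these lists are counted but not reported by name here. Pool numbers pair the arrays because the labels give a shared slide, and deviations from the genotype means correlated at 0.19, 0.24 and 0.03 within slides, against −0.22 to 0.19 over 9 other pairs. As alternatives, arrays were scaled to the 75th percentile or quantile normalized, background correction, the dim probe filter or the removal of outlier spots was omitted, and the authors' values were used. Others were the replicate block, slide as a random block, and leaving out each array. Precision is set by the few arrays, and p-values measure the spread between pools. With 4 pools against 3, an exact test of a single value cannot go below p = 0.0286.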

Additional observations from a re-analysis of the deposited data

Results flagged for a closer look

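The 4 mutant values of *Apoa1* were uneven. Mutant pool 1, at 8.79, stood 0.951 of the group's whole range away from its nearest neighbour, past Dixon's critical value at 95% for 4 arrays, while the other 3 pools lay between 9.33 and 9.35. Chance passes this critical value in about 1 of 20 groups, and 10 were examined, not all of them independent. Without mutant pool 1 the change of *Apoa1* was 1.06 (limma's adjusted p = 0.101) against 0.92 with all arrays.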

How the results depend on the processing

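The changes of *Apoa1*, *Apoa2*, *Apob*, *Apoc2*, *Apoe* and *Apom* kept a positive direction under all 16 alternatives, and *Apoa5* did in 15, with −0.25 in the authors' values. Besides *Apoc2*, none of the 7 passed 0.05 with all arrays. *Apoc2* lost its call in 13 of 16, with an adjusted p from 0.00738 to 0.934. The 1 member probe called became 0 with the 75th percentile scaling, quantile normalization, the authors' values, outlier spots kept, no filter on dim probes (16 probes tested) and the replicate block, and ranged from 0 to 2 when single arrays were left out (2 without mutant pool 1, where the second was *Apoh*, which passed the filter only through the mutant arrays, in which it is high, so this call carries no weight). Of the pathway genes, 5 with all arrays, 1 was called with the 75th percentile scaling and with no filter on dim probes, 2 with outlier spots kept, and 0 in the authors' values and with the replicate block, with 0 to 5 on leaving out arrays. Under the replicate block 11 of all probes were called against 129 (2100 and 1839 at an unadjusted p under 0.05), and of the members' probes 5 against 6 were under an unadjusted 0.05. That block leaves mutant pool 2 without a partner, so its changes equal those without this pool. With slide as a random block, which keeps pool 2, limma called 182 of all probes, 1 member probe and 6 pathway genes. The 6 members less *Apoe* came to 0.001 against 0.324 in the authors' values, also when these were set to 1 median per array, and to 0.191 to 0.458 on leaving out arrays. Set to 1 median per array, an alternative chosen after seeing the data as was following each called pathway gene and the hepatoblast markers, the authors' values called 0 members and 0 pathway genes. The cause of these differences was not tested. In the authors' values limma called 0 of all probes (28 at an unadjusted p under 0.05, and 1038 after setting the medians). For *Apoa4* and *Apoc3*, at or under background on nearly all arrays, a change was not detectable at this signal.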
